A study of Mus musculus with 18 samples.

Results

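The genes described here are 51 mouse genes of the cell cycle and of proliferation: cyclins, cyclin-dependent kinases (CDKs) and their inhibitors, and genes of DNA replication and mitosis. They were chosen by name, with earlier results of these data known. They were grouped by the phase in which they mainly act, 12 in G1, 15 in S and 24 in G2/M. All 51 were found by Entrez identifier among the 27179 genes listed for each library, and 50 passed the filter on low counts that precedes the tests. Mcm2, with 42 counts over all 18 libraries, did not pass, and Kif20a passed with 306 counts.

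The series holds 18 libraries of 3′ mRNA sequencing, an assay that reads the polyadenylated end of each transcript, from mouse CD4 T cells with floxed Maf alleles (Maf fl/fl). Naive cells were kept for 3.5 days on plates coated with antibodies to CD3 and CD28 and were then sorted. Each of 3 treatments, named Tfh_A, Tfh_1 and Tfh_5, has 3 libraries labelled CD4Cre+ Maf fl/fl (replicates 1, 3 and 6) and 3 labelled CD4Cre- Maf fl/fl (replicates 2, 4 and 5). CD4Cre is a transgene in which Cd4 regulatory sequence drives Cre recombinase in T cells, and what each treatment contained is not stated in the labels. The labels do not say whether a replicate number is an animal, so the p-values rest on a spread between libraries that may be technical.

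Maf RNA ran against the genotype labels. In CPM, counts scaled to a common library size, Maf had 207, 260 and 196 in Tfh_1 libraries labelled CD4Cre+, against 0, 0 and 2.03 in those labelled CD4Cre-. In Tfh_5 it had 397, 331 and 319 CPM in libraries labelled CD4Cre+, against 0 CPM in each of the 3 labelled CD4Cre-. In Tfh_A it had 22.8, 8.07 and 5.03 CPM under the CD4Cre+ label, against 0.270, 0 and 0 CPM under the CD4Cre- label. A Cre-deleted gene would be low in the libraries labelled CD4Cre+, and the labels do not say whether the 3′ reads fall in the floxed part of Maf. All directions between genotypes are therefore those of the labels.

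Cells that divide pass through G1, when D-type and E-type cyclins with their CDKs push the cell towards DNA synthesis, S phase, when the genome is copied, and G2 and M, when chromosomes condense and separate. The inhibitors p21 (Cdkn1a), p27 (Cdkn1b) and p18 (Cdkn2c) hold CDKs back. Naive T cells rest outside the cycle and divide rapidly after stimulation through CD3 and CD28, so RNA of S and G2/M genes is widely used as a gauge of how many cells in a culture are dividing. In bulk RNA, fewer cells of a kind and less of the RNA per cell cannot be told apart.

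The promoters of such genes carry known short elements, and 4 windows are shown, of 3 members that were called in the tests: 1 each of G2/M, S and G1. RefSeq promoter windows (build GRCm38.p6, 250 bases before to 50 after a transcription start) were found for 42 of the 51 members. Capitals mark the letters TTTGAA (a form of the cell cycle genes homology region), CCAAT (the CCAAT box), and TTGGCGC or TTCCCGC (forms of the E2F site), on either strand. Top2a is the DNA topoisomerase that untangles chromosomes before mitosis, Rrm1 is the large subunit of ribonucleotide reductase, and Cdkn1a, with 2 windows, encodes p21.
Top2a, chr11:99024140-99024439, minus strand: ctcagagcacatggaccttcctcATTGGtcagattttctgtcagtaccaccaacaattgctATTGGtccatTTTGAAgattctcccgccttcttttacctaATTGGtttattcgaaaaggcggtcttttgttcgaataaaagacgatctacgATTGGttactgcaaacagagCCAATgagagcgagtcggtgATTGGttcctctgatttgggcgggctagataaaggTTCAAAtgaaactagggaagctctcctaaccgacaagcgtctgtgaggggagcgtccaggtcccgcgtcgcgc
Rrm1, chr7:102441445-102441744, plus strand: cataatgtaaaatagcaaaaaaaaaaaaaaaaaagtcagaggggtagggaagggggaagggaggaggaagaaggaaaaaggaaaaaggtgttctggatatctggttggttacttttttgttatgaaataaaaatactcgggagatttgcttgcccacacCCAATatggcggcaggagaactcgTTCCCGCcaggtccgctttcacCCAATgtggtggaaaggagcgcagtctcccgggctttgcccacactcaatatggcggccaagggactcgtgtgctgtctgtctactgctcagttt
Cdkn1a, first window, chr17:29090729-29091028, plus strand: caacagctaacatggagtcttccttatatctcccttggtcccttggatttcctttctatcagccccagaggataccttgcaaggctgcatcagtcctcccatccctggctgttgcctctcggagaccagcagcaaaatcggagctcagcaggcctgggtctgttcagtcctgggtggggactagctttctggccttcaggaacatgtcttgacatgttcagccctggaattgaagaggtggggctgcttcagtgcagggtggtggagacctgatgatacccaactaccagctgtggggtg
Cdkn1a, second window, chr17:29093519-29093818, plus strand: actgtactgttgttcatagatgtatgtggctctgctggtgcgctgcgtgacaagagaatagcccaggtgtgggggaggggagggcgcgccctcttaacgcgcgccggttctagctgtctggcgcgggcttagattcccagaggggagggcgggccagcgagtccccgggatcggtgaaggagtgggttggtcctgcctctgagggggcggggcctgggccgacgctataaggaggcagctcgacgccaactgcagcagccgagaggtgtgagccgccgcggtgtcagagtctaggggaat

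The Top2a window held TTTGAA at 2 places, 1 of them 23 to 18 bases before the start on the other strand, and CCAAT at 6 places. The Rrm1 window held TTCCCGC 67 to 61 bases before the start, between a pair of CCAAT matches, and the Cdkn1a windows held none of the letters searched. Of the members with a window, TTTGAA was found in 13 of 19 G2/M members, 1 of 13 S members and 1 of 10 G1 members, beside 20.2% of the 27025 genes with a window. CCAAT was found in 17 of 19 G2/M, 9 of 13 S and 5 of 10 G1 members, beside 41.1% of all genes. All 13 G2/M members with TTTGAA also held CCAAT, a combination present in 8.97% of all genes. The E2F letters were found in 7 of 13 S members, 3 of 19 G2/M members and 3 of 10 G1 members, beside 7.79% of all genes. TTTAAA, another form of the homology region, was found in 6 of 19 G2/M, 4 of 13 S and 2 of 10 G1 members, beside 14.9% of all genes. A match in these letters is a description and not a site.

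Total counts were 6424874 to 9236153 per library, and 2 identifiers without a name in the reference took 19.7% to 46.2% of them. Their share averaged 25.1% in Tfh_A libraries labelled CD4Cre- and 36.6% to 40.5% in the other groups. The library labelled CD4Cre- replicate 5 in Tfh_5 stood apart on the second principal component and had the fewest genes above 0, at 10242, and the library labelled CD4Cre+ replicate 1 in Tfh_A had the largest share in those 2 identifiers. Without the first of these, 5 members were called between genotype labels in Tfh_5 where 4 were called with it, and 3 between Tfh_5 and Tfh_A under the CD4Cre- label where 1 was called with it. Without the second, 5 members were called between Tfh_1 and Tfh_A under the CD4Cre+ label where 6 were called with it, and 7 between Tfh_5 and Tfh_A as with it. The 7 CD4 T cell markers summed to 1530 to 3362 CPM per library. They summed to 2917 to 3362 CPM in Tfh_1 libraries labelled CD4Cre+ against 1574 to 2028 CPM in those labelled CD4Cre-, to 2674 to 3270 against 1792 to 2180 CPM in Tfh_5, and to 1530 to 2090 against 1659 to 1717 CPM in Tfh_A. The part of this difference in the results on the members was not tested. The markers of CD8 T, B, NK, γδ T, myeloid and erythroid cells each summed to at most 21.8 CPM. The 7 B cell markers, with Pax5 at 0 throughout, summed to 0.124 to 3.96 CPM in Tfh_1 libraries labelled CD4Cre+ against 6.77 to 21.8 CPM in those labelled CD4Cre-, to 0 to 1.82 against 2.99 to 10.7 CPM in Tfh_5, and to 5.65 to 12.8 against 4.32 to 6.89 CPM in Tfh_A. Only 1 of the 7, Fcmr, passed the filter on low counts. It was called lower under the CD4Cre+ label in Tfh_5, beside 2.05% of all genes lower. Only 1 of the 7 was detected in Tfh_5 libraries labelled CD4Cre-, so these sums do not describe the 7 markers as a set.

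The 51 members together took 0.870% to 1.08% of a library's counts, the 2 unnamed identifiers left out, in Tfh_A libraries labelled CD4Cre+, and 1.09% to 1.19% in those labelled CD4Cre-. In Tfh_1 the share was 0.592% to 0.669% under the CD4Cre+ label and 0.829% to 0.922% under the CD4Cre- label. In Tfh_5 it was 0.597% to 0.734% under the CD4Cre+ label and 0.732% to 0.825% under the CD4Cre- label. The share was thus highest in Tfh_A under both labels, and the genotype labels overlapped in Tfh_5 only.

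Averaged over the members of a phase and the libraries of a group, the S and G2/M levels were lower under the CD4Cre+ label in each treatment. Single libraries of the labels overlapped for the S level in Tfh_A and for the G2/M level in Tfh_5. The average G1 level was lower in Tfh_A and Tfh_1 and higher in Tfh_5, with overlap between the labels in each treatment. The mean log2(CPM + 1) of the 24 G2/M members was 5.995 ± 0.13 in Tfh_A, 5.61 ± 0.17 in Tfh_1 and 5.47 ± 0.25 in Tfh_5 in libraries labelled CD4Cre+, and 6.33 ± 0.08, 5.999 ± 0.14 and 5.76 ± 0.15 in those labelled CD4Cre- (SD, n = 3 libraries each). That of the 15 S members was 5.94 ± 0.34, 5.30 ± 0.20 and 5.29 ± 0.12 under the CD4Cre+ label, and 6.22 ± 0.06, 5.73 ± 0.18 and 5.65 ± 0.15 under the CD4Cre- label. For the 12 G1 members, which hold both cyclins and CDK inhibitors, it was 5.44 ± 0.28, 4.95 ± 0.11 and 4.92 ± 0.46 under the CD4Cre+ label, and 5.51 ± 0.12, 5.26 ± 0.24 and 4.78 ± 0.19 under the CD4Cre- label. The G1 level in Tfh_5 was 4.61, 5.44 and 4.70 in CD4Cre+ replicates 1, 3 and 6, against 4.88, 4.89 and 4.55 in CD4Cre- replicates 2, 4 and 5. The higher average there rests on CD4Cre+ replicate 3. These levels are descriptions, with no test.

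**Figure D1:**
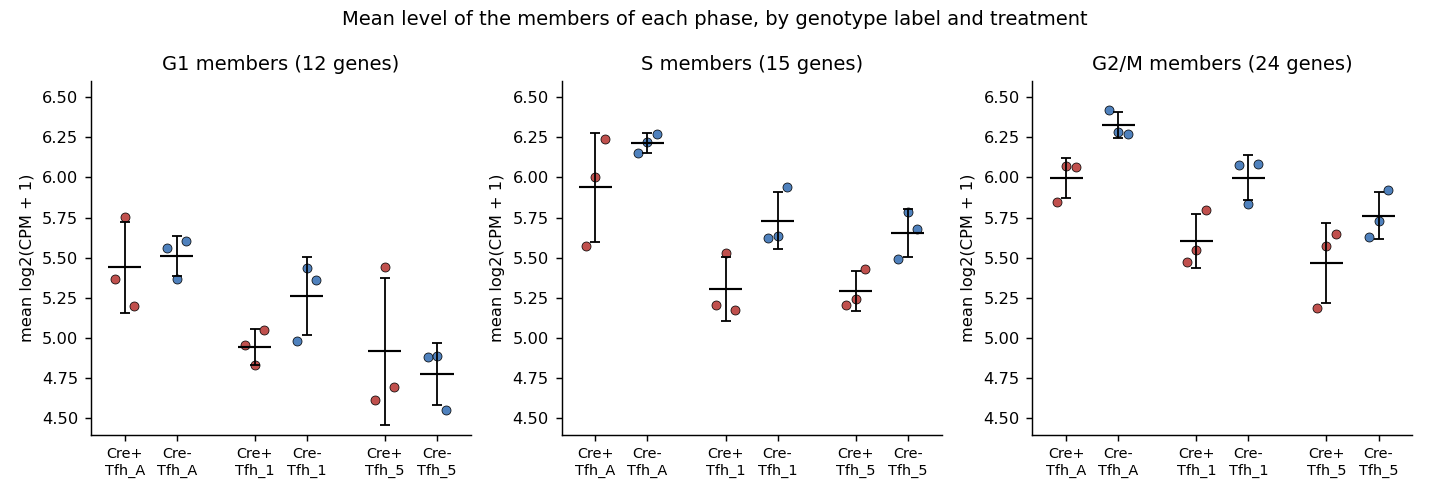
Mean log2(CPM + 1) of the G1, S and G2/M members in each of the 18 libraries (points), with the mean (line) and SD (bar) of each group of 3. Red marks libraries labelled CD4Cre+ and blue those labelled CD4Cre-, and the vertical axis starts at 4.4. The G2/M level of the libraries labelled CD4Cre+ averaged 5.47 in Tfh_5, and that of those labelled CD4Cre- in Tfh_A averaged 6.33.

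The first comparison asks how the genotype labels differ within each treatment, in a study of c-Maf in the choice between T cell fates. The clearest member was Cdkn1a, which encodes p21 and is a well known target of p53. It was lower in libraries labelled CD4Cre+ than in those labelled CD4Cre- in Tfh_1 and in Tfh_5. S and G2/M members were mostly lower as well, in these 2 treatments and also in Tfh_A. Of them only Rrm2 and Top2a passed the test, in Tfh_5. In Tfh_1, 1 of 50 tested members was called at an adjusted p under 0.05, beside 0.852% of all 11735 genes, and in Tfh_5 4 of 50 were called, beside 3.24% of all genes. The share in Tfh_1 is close to the background and says little about the members as a group.

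In Tfh_A, 0 of 50 members and 0% of all genes were called between the genotype labels with edgeR. At an unadjusted p under 0.05, edgeR gave 2 members and 606 of all genes. DESeq2 and limma-voom called 0 members as well, and 32 and 6 of all genes.

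Cdkn1a had 72.6, 102 and 99.96 CPM in Tfh_1 libraries labelled CD4Cre+, against 231, 195 and 282 CPM in those labelled CD4Cre-. In Tfh_5 it had 58.2, 37.8 and 63.2 CPM under the CD4Cre+ label, against 84.9, 129 and 121 CPM under the CD4Cre- label. The labels did not overlap in either treatment. In Tfh_A the order was the other way, with 234, 246 and 192 CPM under the CD4Cre+ label, against 189, 162 and 175 CPM under the CD4Cre- label, a log2 difference of 0.35 ± 0.23 that did not pass. The log2 fold change of CD4Cre+ over CD4Cre- was -1.37 ± 0.24 in Tfh_1 (edgeR adjusted p = 0.00096) and -1.07 ± 0.24 in Tfh_5 (adjusted p = 0.0056). The call in Tfh_1 held in all 14 alternatives run, and that in Tfh_5 was lost when its 6 libraries were fitted alone (adjusted p = 0.173). An antisense gene overlaps exons of Cdkn1a, and whether the authors counted by strand is not stated.

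The difference between genotype labels in Cdkn1a itself differed between treatments. It was lower in Tfh_1 than in Tfh_A by -1.72 ± 0.33 on the log2 scale (edgeR interaction, adjusted p = 0.0069), and lower in Tfh_5 than in Tfh_A by -1.43 ± 0.33 (adjusted p = 0.019). Cdkn1a was the only member called in either interaction, beside 0.239% of all genes for Tfh_1 and 1.19% for Tfh_5. The first call was lost without CD4Cre- replicate 5 of Tfh_1 (adjusted p = 0.0526). The second was lost without CD4Cre- replicate 5 or 4 of Tfh_A (0.0574 and 0.0614), without CD4Cre+ replicate 1 or 3 of Tfh_A (0.0533 and 0.0521) and without CD4Cre+ replicate 3 of Tfh_5 (0.0562). Between Tfh_5 and Tfh_1, 0 of 50 members differed in the edgeR interaction, beside 0.0597% of all genes, with 3 members and 992 genes at an unadjusted p under 0.05 and 0 members called by DESeq2.

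Cdkn1b, the inhibitor that keeps resting T cells out of the cycle, lay the other way from Cdkn1a. It had 264, 193 and 247 CPM in Tfh_1 libraries labelled CD4Cre+, against 162, 145 and 148 CPM in those labelled CD4Cre-, and 178, 141 and 144 CPM in Tfh_5 libraries labelled CD4Cre+, against 75.7, 124 and 93.8 CPM in those labelled CD4Cre-. The labels did not overlap in either treatment, but the log2 differences of 0.63 ± 0.23 and 0.66 ± 0.23 did not pass the test (adjusted p = 0.261 and 0.125). In Tfh_A it had 132, 104 and 137 CPM under the CD4Cre+ label, against 119, 107 and 84.7 CPM under the CD4Cre- label, with overlap.

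**Figure D2:**
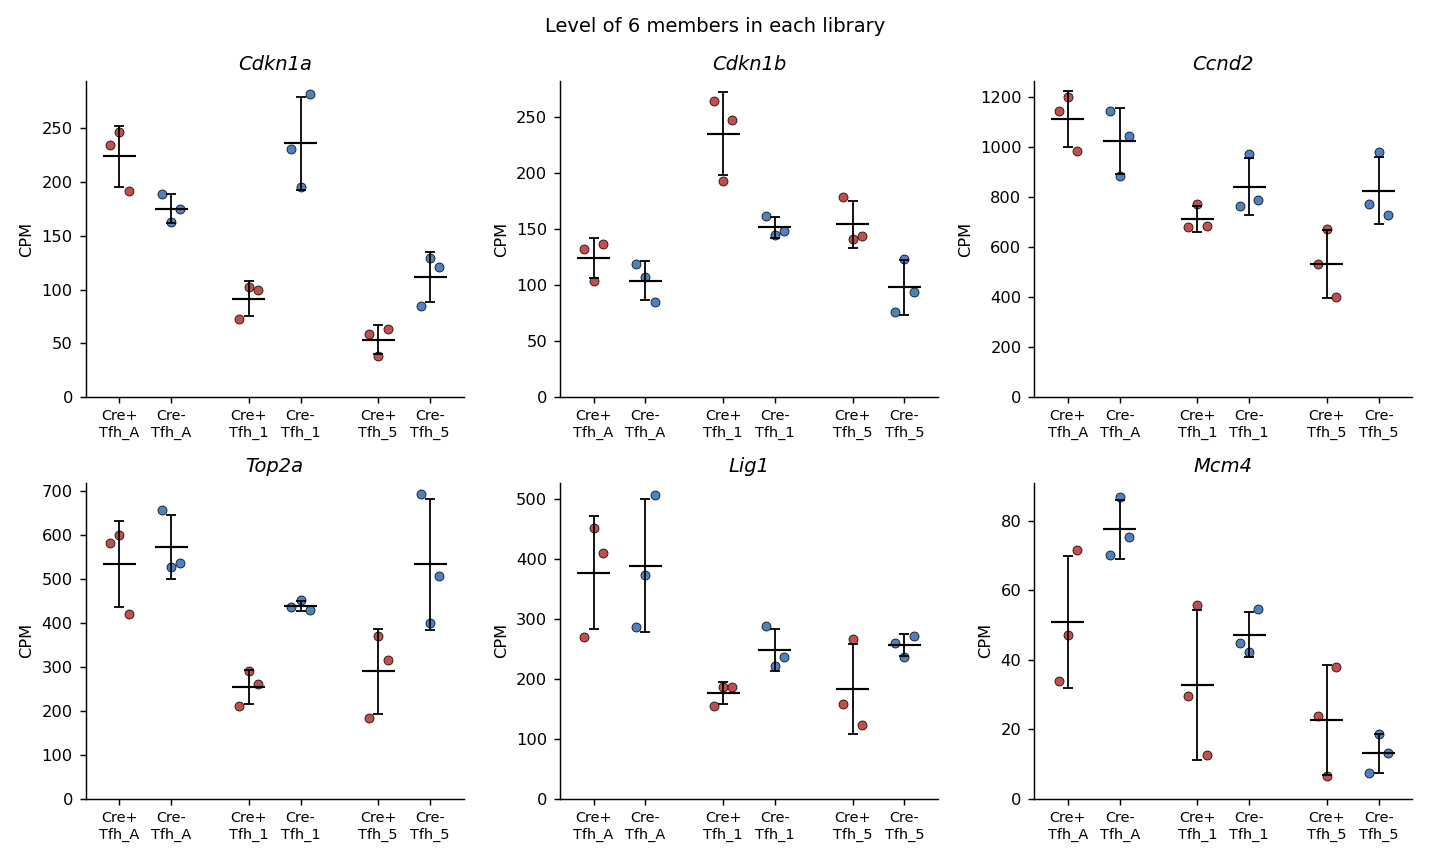
CPM of Cdkn1a, Cdkn1b, Ccnd2, Top2a, Lig1 and Mcm4 in each of the 18 libraries (points), with the mean (line) and SD (bar) of each group of 3. Red marks libraries labelled CD4Cre+ and blue those labelled CD4Cre-. In Tfh_1 the 3 Cdkn1a points of the CD4Cre+ label reach 102 CPM at most, and the lowest of the CD4Cre- label is 195 CPM.

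Among the G1 cyclins, Ccnd2, the D-type cyclin that activated lymphocytes induce, was lower under the CD4Cre+ label in Tfh_5. It had 532, 671 and 399 CPM in libraries labelled CD4Cre+, against 771, 980 and 729 CPM in those labelled CD4Cre-, with no overlap. The log2 fold change was -0.63 ± 0.18 (edgeR adjusted p = 0.046). This call lies next to the threshold. It was lost with relative log expression scaling (0.0672), without a count filter (0.0541), in the 6 libraries alone (0.323), without CD4Cre- replicate 4 (0.220) and without CD4Cre+ replicate 1 or 6 (0.128 and 0.305). In Tfh_1 Ccnd2 had 681, 772 and 684 CPM under the CD4Cre+ label, against 766, 974 and 787 CPM under the CD4Cre- label, and in Tfh_A 1147, 1203 and 987 CPM against 1145, 886 and 1046 CPM.

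Ccne2, the E-type cyclin that drives entry into S phase, had 23.2, 17.9 and 40.4 CPM in Tfh_1 libraries labelled CD4Cre+, against 59.2, 80.1 and 57.4 CPM in those labelled CD4Cre-. The labels did not overlap there, and the log2 difference of -1.27 ± 0.35 came with an adjusted p of 0.08. In Tfh_A it had 52.60, 48.4 and 32.3 CPM under the CD4Cre+ label, against 52.64, 58.0 and 70.03 CPM under the CD4Cre- label. The labels did not overlap in Tfh_A either, by a narrow margin. In Tfh_5 it had 35.4, 68.6 and 52.3 CPM against 87.8, 60.7 and 148 CPM, with overlap. It passed only when the counts of a replicate number were summed over treatments, as described further on.

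Ccnd3, Cdk6 and Cdkn2c were too low for a statement. Ccnd3, another D-type cyclin, had 13, 20.9 and 0.12 CPM in Tfh_A, 5.72, 1.9 and 3.09 in Tfh_1 and 0, 9.09 and 0.775 in Tfh_5 under the CD4Cre+ label, and 13.6, 2.56 and 12.8 in Tfh_A, 0.165, 7.31 and 3.51 in Tfh_1 and 2.07, 7.12 and 0 in Tfh_5 under the CD4Cre- label. Cdk6, a kinase partner of D-type cyclins, had 2.19, 7.97 and 0.838 CPM in Tfh_A, 7.95, 2.85 and 0 in Tfh_1 and 0.604, 17.7 and 11.1 in Tfh_5 under the CD4Cre+ label, and 2.43, 6.85 and 2.6 in Tfh_A, 3.63, 8.83 and 9.19 in Tfh_1 and 9.2, 0 and 1.67 in Tfh_5 under the CD4Cre- label. Cdkn2c, the inhibitor p18, had 2.37, 11.6 and 11.3 CPM in Tfh_A, 3.6, 2.06 and 5.7 in Tfh_1 and 4.53, 14.2 and 1.03 in Tfh_5 under the CD4Cre+ label, and 6.48, 6.44 and 10.3 in Tfh_A, 2.48, 4.57 and 3.65 in Tfh_1 and 2.46, 3.56 and 0 in Tfh_5 under the CD4Cre- label. Each fell below 1 CPM in at least 1 library, and the SE of their log2 differences between genotype labels was 1.33 to 1.56. Cdk4, another kinase partner of D-type cyclins, averaged 119 ± 27.7 CPM in Tfh_5 libraries labelled CD4Cre+ and 72.7 ± 10.7 CPM in those labelled CD4Cre- (SD, n = 3), a log2 difference of 0.70 ± 0.25 that did not pass (adjusted p = 0.14). The fitted differences of the 12 G1 members had a median of -0.19 in Tfh_1, 0.29 in Tfh_5 and 0.12 in Tfh_A, beside -0.02, 0.00 and 0.00 for all genes.

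Of the S members, the genes that copy the genome and supply its nucleotides, 13 of 14 tested had a fitted difference below 0 in Tfh_1, 11 in Tfh_5 and 12 in Tfh_A, beside 51%, 49.7% and 49.8% of all genes. Their median log2 difference was -0.38, -0.46 and -0.32. Only Rrm2, the regulated small subunit of ribonucleotide reductase, was called, in Tfh_5. It had 24.2, 26.2 and 15.9 CPM in libraries labelled CD4Cre+, against 62.0, 63.8 and 44.8 CPM in those labelled CD4Cre-, with no overlap. The log2 fold change was -1.36 ± 0.39 (edgeR adjusted p = 0.044). In Tfh_1 and Tfh_A its values overlapped, with 14.7, 24.5 and 29.8 CPM and 27.4, 29.6 and 40.4 CPM under the CD4Cre+ label. The Rrm2 call was lost with relative log expression scaling (0.0528), without a count filter (0.0607), in the 6 libraries alone (0.155), without CD4Cre- replicate 4 or 2 (0.123 and 0.126) and without CD4Cre+ replicate 1, 3 or 6 (0.101, 0.0617 and 0.207).

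Pcna, the sliding clamp of DNA polymerase, did not overlap between the labels in Tfh_1 or in Tfh_5 and did not pass in either. It had 49.1, 91.3 and 73.9 CPM in Tfh_1 libraries labelled CD4Cre+, against 139, 122 and 167 CPM in those labelled CD4Cre- (log2 difference -0.9996 ± 0.31, adjusted p = 0.14). In Tfh_5 it had 60.9, 45.4 and 55.0 CPM under the CD4Cre+ label, against 88.2, 91.8 and 111 CPM under the CD4Cre- label (-0.85 ± 0.31, adjusted p = 0.15). In Tfh_A, with 41.6, 92.0 and 140 CPM against 106, 145 and 101 CPM, the labels overlapped.

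Tk1, a thymidine kinase of S phase, averaged 26.8 ± 9.29 CPM in Tfh_5 libraries labelled CD4Cre+ and 61.4 ± 21.2 CPM in those labelled CD4Cre- (SD, n = 3), with a log2 difference of -1.20 ± 0.36 and an adjusted p of 0.056. Its libraries labelled CD4Cre- had 55.1, 85.1 and 44 CPM in Tfh_5, 71.1, 61.5 and 50.5 CPM in Tfh_1 and 53.2, 70.8 and 114 CPM in Tfh_A.

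The fitted differences of the MCM helicase genes, which open DNA at replication origins, lay on both sides of 0 in Tfh_5. There the log2 differences were -0.37 ± 0.20 for Mcm3, 0.80 ± 0.49 for Mcm4, -0.34 ± 0.29 for Mcm5, 0.42 ± 0.22 for Mcm6 and 0.41 ± 0.23 for Mcm7, and none passed. In Tfh_1 and in Tfh_A, 4 of these 5 were below 0 and none passed, the exceptions being Mcm6 with 0.02 ± 0.22 in Tfh_1 and Mcm5 with 0.09 ± 0.29 in Tfh_A. Mcm5 had 43.3, 49.0 and 57.0 CPM in Tfh_1 libraries labelled CD4Cre+, against 59.7, 73.4 and 55.9 CPM in those labelled CD4Cre-. In Tfh_5 it had 45.2, 41.8 and 69.9 CPM against 71.3, 71.8 and 54.9 CPM. In Tfh_A it had 102, 97.6 and 79.99 CPM against 118, 55.6 and 88.3 CPM. All 3 pairs of groups overlapped.

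Of the 24 G2/M members, 20 had a fitted difference below 0 in Tfh_1, 18 in Tfh_5 and 19 in Tfh_A, with medians of -0.52, -0.58 and -0.30. Top2a was the only one called, in Tfh_5. It had 183, 371 and 316 CPM in Tfh_5 libraries labelled CD4Cre+, against 693, 399 and 507 CPM in those labelled CD4Cre-, and 212, 290 and 260 CPM in Tfh_1 libraries labelled CD4Cre+, against 435, 451 and 429 CPM in those labelled CD4Cre-. The labels did not overlap in either treatment. The log2 fold change was -0.88 ± 0.22 in Tfh_5 (edgeR adjusted p = 0.017) and -0.79 ± 0.22 in Tfh_1, where it did not pass (adjusted p = 0.084). The Tfh_5 call was lost in the 6 libraries alone (0.254), without CD4Cre- replicate 2 (0.133) and without CD4Cre+ replicate 1 (0.171). In Tfh_A, where the labels overlapped, Top2a had 581, 600 and 421 CPM under the CD4Cre+ label, against 657, 527 and 535 CPM under the CD4Cre- label.

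Mki67, the proliferation marker Ki-67, was lower on average under the CD4Cre+ label in each treatment and passed in none. It had 64.5, 70.4 and 42.1 CPM in Tfh_A libraries labelled CD4Cre+, against 70.2, 103 and 102 CPM in those labelled CD4Cre-. The values in Tfh_1 were 34.8, 57.0 and 39.1 CPM against 70.8, 63.2 and 45.7 CPM, and in Tfh_5 51.1, 35.6 and 49.1 CPM against 104, 36.8 and 70.1 CPM. The log2 differences were -0.64 ± 0.33, -0.46 ± 0.33 and -0.64 ± 0.33 in Tfh_A, Tfh_1 and Tfh_5. Ccnb1, the mitotic cyclin B1, had 66.4, 53.6 and 54.5 CPM in Tfh_1 libraries labelled CD4Cre+, against 92.9, 78.7 and 79.2 CPM in those labelled CD4Cre-, without overlap or a call. In Tfh_5 its values, 23.6, 43.4 and 113 CPM against 59.5, 84.4 and 44.7 CPM, overlapped, as they did in Tfh_A, with 66.3, 98.0 and 96.4 CPM against 112, 121 and 76.7 CPM. Mki67 and Ccnb1 had fractional counts in all 18 libraries, and the source of the fractions was not tested.

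Complete separation of the libraries gives another description of the same comparison. All 3 libraries labelled CD4Cre+ lay below all 3 labelled CD4Cre- for 16 of 50 members in Tfh_1, beside 8.53% of all genes, for 11 in Tfh_5, beside 8.62%, and for 8 in Tfh_A, beside 6.82%. The reverse separation was seen for 3 members in Tfh_1, beside 7.73% of all genes, 2 in Tfh_5, beside 7.98%, and 1 in Tfh_A, beside 6.15%. The 16 members in Tfh_1 were Cdkn1a and Ccne2 of G1, Dut, Lig1, Mcm7, Pcna and Tk1 of S, and Birc5, Ccna2, Ccnb1, Cdc20, Hmgb2, Nusap1, Plk1, Top2a and Ube2c of G2/M. In both Tfh_1 and Tfh_5 the fitted difference was below 0 for 33 of 50 members, beside 29.6% of all genes. By phase these were 4 of 12 G1 members, 11 of 14 S members and 18 of 24 G2/M members. Tfh_1 and Tfh_5 share no library but have the same replicate numbers under each label, so they may not be independent. The members may also move together, and these counts were not tested. Kif20a is given without a fold: it had 10.1, 0.475 and 5.05 CPM in Tfh_1 libraries labelled CD4Cre+, against 0, 0.152 and 0 CPM in those labelled CD4Cre-.

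**Figure D3:**
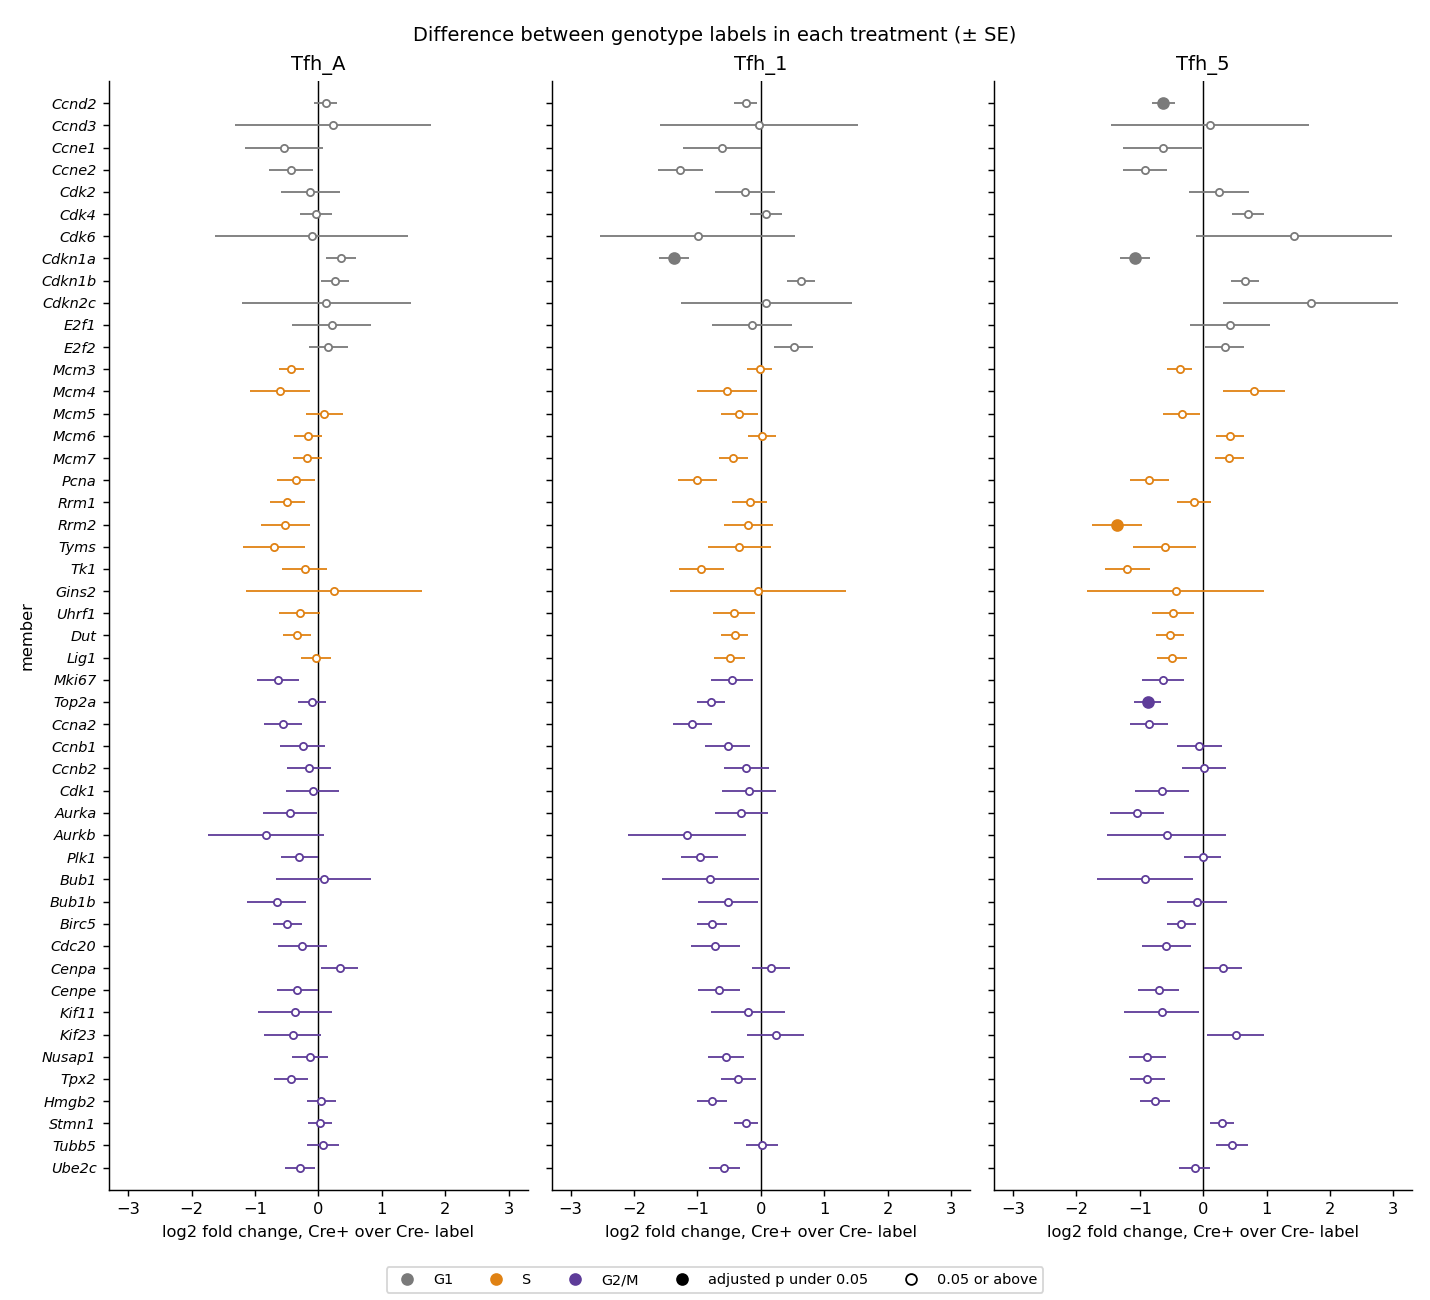
Log2 fold change of libraries labelled CD4Cre+ over those labelled CD4Cre- for 49 members (rows) in Tfh_A, Tfh_1 and Tfh_5 (panels), with SE as bars. Grey, orange and purple mark G1, S and G2/M members, and filled points passed an adjusted p of 0.05. Kif20a, whose SE exceeds the axis, is not drawn, and Mcm2 was not tested. The filled points are Cdkn1a in Tfh_1, and Ccnd2, Cdkn1a, Rrm2 and Top2a in Tfh_5, all below 0.

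Summing the counts of each replicate number over the 3 treatments gave 3 libraries labelled CD4Cre+ against 3 labelled CD4Cre-. Both members called were cyclins of S phase entry and progression: Ccne2, with a log2 fold change of -0.81 ± 0.19 (edgeR adjusted p = 0.034), and Ccna2, the cyclin A that works in S and G2, with -0.78 ± 0.18 (adjusted p = 0.032). That is 2 of 50 members, beside 1.68% of the 11693 genes tested. Ccna2 had 64.8, 62.0 and 69.2 CPM in Tfh_A libraries labelled CD4Cre+, against 110, 89.5 and 89.6 CPM in those labelled CD4Cre-. In Tfh_1 it had 40.4, 37.3 and 52.4 CPM against 72.1, 92.2 and 111 CPM, and in Tfh_5 41.4, 26.9 and 56.6 CPM against 62.7, 55.1 and 108 CPM. The labels did not overlap for Ccna2 in Tfh_A and Tfh_1 and overlapped slightly in Tfh_5. The median over all tested members was -0.35, beside 0.00 for all genes.

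Both summed calls depend on single replicate numbers. Ccna2 was lost without replicate 2, 4, 5, 1 or 3 (adjusted p = 0.0716, 0.0786, 0.163, 0.105 and 0.110), and Ccne2 without replicate 2, 4, 5, 1 or 6 (0.0739, 0.0776, 0.185, 0.133 and 0.107). Other tools called more members, 11 with DESeq2 and 6 with limma-voom. They also called more of all genes, 517 and 316, beside 197 with edgeR. Cdkn1a, whose difference in Tfh_A had the opposite sign, did not pass when summed (-0.46 ± 0.14, adjusted p = 0.12).

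Other genes of the same phases, from wider lists, were counted in the same way. In Tfh_1 the calls between genotype labels were 1 of 53 tested other S genes and 2 of 67 other G2/M genes, all lower under the CD4Cre+ label, beside 0.341% of all genes lower. They were Hells, a chromatin remodeller of replicating cells, with -1.56 ± 0.34 (adjusted p = 0.0126), Cdca8, a subunit of the chromosomal passenger complex, with -1.17 ± 0.26 (0.0172), and Espl1, the protease separase, with -3.16 ± 0.74 (0.0233). In Tfh_5 the calls were again 1 of 53 and 2 of 67, shares near the 2.05% of all genes lower: Hells with -1.77 ± 0.34 (0.00131), Cenpw, a kinetochore protein, with -1.44 ± 0.30 (0.00266), and Mad2l1, of the spindle checkpoint, with -1.45 ± 0.34 (0.00866). Hells had 18.4, 10.1 and 13.3 CPM in Tfh_5 libraries labelled CD4Cre+, against 55.4, 38.0 and 49.3 CPM in those labelled CD4Cre-. Those groups stood well apart.

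These other calls differed in how they depended on single libraries. Cenpw in Tfh_5 held in all 14 alternatives, and Hells in Tfh_5 was lost only in the 6 libraries alone (0.0954). Mad2l1 was lost there (0.122), without CD4Cre- replicate 5 (0.0630) and without CD4Cre+ replicate 3 (0.0529). In Tfh_1 Hells was lost without CD4Cre- replicate 5 (0.0585) or CD4Cre+ replicate 3 or 6 (0.0680 and 0.0773), and Cdca8 without CD4Cre- replicate 4 (0.131) or CD4Cre+ replicate 6 or 1 (both 0.119). Espl1 was lost with limma-voom (0.169), in the 6 libraries alone (0.0859), without CD4Cre- replicate 2 or 5 (0.186 and 0.0591) and without CD4Cre+ replicate 6 or 1 (0.142 and 0.0812). The median difference of the other G2/M genes was -0.66 in Tfh_1 and -0.64 in Tfh_5, of the other S genes -0.54 and -0.52, and of 20 other G1 genes -0.02 and -0.03. In Tfh_A these medians were -0.19, -0.31 and -0.13.

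The second comparison asks how the treatments differ in libraries labelled CD4Cre-. Most members were lower in Tfh_1 and in Tfh_5 than in Tfh_A, but single calls were few. The only calls were Rrm1, lower in Tfh_1 than in Tfh_A, Mcm4, lower in Tfh_5 than in Tfh_A, and Cdkn1a, lower in Tfh_5 than in Tfh_1. That is 1 of 50 members in each contrast, beside 2.23%, 5.08% and 0.554% of all genes called, so the counts in the first and second contrast are no result about the members. All were lower calls, beside 0.733%, 1.91% and 0.281% of all genes called lower and 1.5%, 3.17% and 0.273% called higher. Fitted differences below 0 were found for 39 of 50 members in Tfh_1 against Tfh_A, beside 52.2% of all genes, for 44 in Tfh_5 against Tfh_A, beside 54%, and for 29 in Tfh_5 against Tfh_1, beside 49.5%. The contrasts with Tfh_A share its 3 libraries, and their values are given side by side only.

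Mcm4, a subunit of the replicative helicase, had 7.39, 18.5 and 13.2 CPM in Tfh_5 libraries labelled CD4Cre-, against 70.2, 87.0 and 75.5 CPM in Tfh_A, and 44.9, 42.3 and 54.6 CPM in Tfh_1. No Tfh_5 library reached the lowest of either other treatment. The log2 fold change of Tfh_5 over Tfh_A was -2.57 ± 0.51 (edgeR adjusted p = 0.001), the largest in size of any call among the members, and it held in all 15 alternatives. The other tested MCM genes differed by less in the same contrast, with -0.08 ± 0.20 for Mcm3, -0.40 ± 0.29 for Mcm5, -0.28 ± 0.22 for Mcm6 and -0.45 ± 0.23 for Mcm7.

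Rrm1 had 55.8, 60.1 and 49.3 CPM in Tfh_1 libraries labelled CD4Cre-, against 96.5, 128 and 142 CPM in Tfh_A. The groups did not overlap, and the log2 fold change was -1.15 ± 0.28 (edgeR adjusted p = 0.015). In Tfh_5 it had 75.2, 89.5 and 109 CPM, overlapping with Tfh_A. The call was lost without Tfh_A replicate 5 or 4 (0.142 and 0.0772) and without Tfh_1 replicate 2, 5 or 4 (0.0708, 0.0887 and 0.0544). Rrm2 had 33.0, 21.5 and 24.7 CPM in Tfh_1 libraries labelled CD4Cre-, against 37.5, 62.1 and 40.6 CPM in Tfh_A, with no overlap and a log2 difference of -0.82 ± 0.39 that did not pass. Under the CD4Cre+ label Rrm1 had 37.3, 65.8 and 43.1 CPM in Tfh_1 and 61.8, 84.4 and 101 CPM in Tfh_5, against 71.8, 86.5 and 103 CPM in Tfh_A, with no call.

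Cdkn1a was lower in Tfh_5 than in Tfh_1 under the CD4Cre- label by -1.08 ± 0.24 (edgeR adjusted p = 0.020), from the values given above. This call was lost in the 6 libraries alone (0.0929), without Tfh_1 replicate 2 or 5 (0.0613 and 0.172) and without Tfh_5 replicate 2 or 5 (0.0989 and 0.0509). Against Tfh_A, its log2 difference under the CD4Cre- label was 0.43 ± 0.23 in Tfh_1 and -0.65 ± 0.23 in Tfh_5, and neither passed.

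All 3 Tfh_1 libraries labelled CD4Cre- lay below all 3 of Tfh_A for 17 of 50 members, beside 12.2% of all genes, and all 3 of Tfh_5 for 14 of 50, beside 13.9%. Between Tfh_5 and Tfh_1 this was so for 7 of 50, beside 8.42%. The reverse was seen for 3 members in Tfh_1 against Tfh_A, beside 10.4% of all genes, 0 in Tfh_5 against Tfh_A, beside 10.7%, and 4 in Tfh_5 against Tfh_1, beside 7.57%. The median difference of the S members was -0.56 for Tfh_1 and -0.41 for Tfh_5 against Tfh_A, and that of the G2/M members -0.23 and -0.38, beside -0.04 and -0.09 for all genes. Uhrf1, which guides maintenance DNA methylation at replication forks, had 36.1, 39.6 and 47.4 CPM in Tfh_1 and 29.8, 42.7 and 55.5 CPM in Tfh_5, against 70.6, 90.1 and 93.7 CPM in Tfh_A. It did not overlap with Tfh_A in either treatment and did not pass (adjusted p = 0.10 and 0.084).

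The third comparison asks the same in libraries labelled CD4Cre+, where more members passed. Against Tfh_A, 6 of 50 members were called in Tfh_1, beside 2.57% of all genes, and 7 of 50 in Tfh_5, beside 5.39%. Cdkn1a, Ccnd2, Uhrf1, Lig1 and Top2a were lower in Tfh_1 and also in Tfh_5. Cdkn1b was higher in Tfh_1, and Tk1 and Tpx2 were lower in Tfh_5. Between Tfh_5 and Tfh_1, 1 of 50 was called, beside 1.76%: Stmn1, higher in Tfh_5. Among all genes, 1.58% were called higher and 0.997% lower in Tfh_1 than in Tfh_A, 2.39% and 3% in Tfh_5 than in Tfh_A, and 0.435% and 1.32% in Tfh_5 than in Tfh_1. Whether a member's treatment difference is larger under one label than under the other was tested in the interactions given above, in which Cdkn1a alone passed.

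Of the G1 members, Cdkn1a had the clearest step: the CPM given above lay between 192 and 246 in Tfh_A, between 72.6 and 102 in Tfh_1 and between 37.8 and 63.2 in Tfh_5 under the CD4Cre+ label, with no overlap between the treatments. Its log2 fold change against Tfh_A was -1.29 ± 0.24 in Tfh_1 (edgeR adjusted p = 0.00083) and -2.08 ± 0.24 in Tfh_5 (adjusted p = 1.2e-07), and both calls held in all 15 alternatives. Between Tfh_5 and Tfh_1 it did not pass (-0.79 ± 0.24, adjusted p = 0.090). Ccnd2, from the values given above, was lower than in Tfh_A by -0.64 ± 0.18 in Tfh_1 (adjusted p = 0.048) and by -1.06 ± 0.18 in Tfh_5 (adjusted p = 0.00016). The Tfh_5 call for Ccnd2 held in all 15 alternatives.

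The Tfh_1 call for Ccnd2 was lost with a stricter count filter (0.050004), without Tfh_A replicate 6, 1 or 3 (0.0595, 0.115 and 0.195) and without Tfh_1 replicate 3, 6 or 1 (0.0725, 0.160 and 0.174). Cdkn1b was higher in Tfh_1 than in Tfh_A by 0.92 ± 0.23 (edgeR adjusted p = 0.017), with no overlap between 264, 193 and 247 CPM in Tfh_1 and 132, 104 and 137 CPM in Tfh_A. That call was lost without Tfh_A replicate 3 (0.134) and without Tfh_1 replicate 6 or 1 (0.0706 and 0.0992). In Tfh_5 the Cdkn1b difference of 0.31 ± 0.23 did not pass. So 1 CDK inhibitor was higher and another lower in Tfh_1 than in Tfh_A under the same label.

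Among the S members, Lig1, the ligase that joins Okazaki fragments, had 155, 186 and 187 CPM in Tfh_1 and 158, 266 and 122 CPM in Tfh_5, against 270, 451 and 410 CPM in Tfh_A, in libraries labelled CD4Cre+. Neither treatment overlapped with Tfh_A. Under the CD4Cre- label it had 287, 221 and 235 CPM in Tfh_1 and 260.1, 236 and 272 CPM in Tfh_5, against 286, 372 and 507 CPM in Tfh_A, and was not called. The log2 fold changes under the CD4Cre+ label were -1.10 ± 0.24 in Tfh_1 (edgeR adjusted p = 0.0058) and -1.05 ± 0.24 in Tfh_5 (0.0047). The Lig1 call in Tfh_1 was lost without Tfh_A replicate 3 (0.0580), and that in Tfh_5 in the 6 libraries alone (0.0518) and without Tfh_5 replicate 6 (0.0653).

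Uhrf1 had 37.8, 25.2 and 28.5 CPM in Tfh_1 and 36.1, 37.4 and 18.6 CPM in Tfh_5, against 54.8, 81.1 and 70.9 CPM in Tfh_A, again with no overlap. Its log2 fold changes were -1.18 ± 0.34 (adjusted p = 0.049) and -1.17 ± 0.33 (0.030). The call in Tfh_1 held in 6 of the 15 alternatives. Among others it was lost with the 2 unnamed identifiers left out (0.0571), without a count filter (0.0520), in the 6 libraries alone (0.0679), without Tfh_A replicate 6 or 3 (0.130 and 0.224) and without Tfh_1 replicate 3, 6 or 1 (0.179, 0.164 and 0.0641). The call in Tfh_5 was lost in the 6 libraries alone (0.0884), without Tfh_A replicate 6 or 3 (0.0895 and 0.149) and without Tfh_5 replicate 6 (0.196).

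Tk1 had 16.3, 29.9 and 34.1 CPM in Tfh_5, against 64.7, 66.2 and 73.999 CPM in Tfh_A, and 27.6, 46.5 and 21.3 CPM in Tfh_1. The values of both treatments lay below those of Tfh_A. The log2 fold change was -1.35 ± 0.36 in Tfh_5 (edgeR adjusted p = 0.016) and -1.10 ± 0.35 in Tfh_1, which did not pass (0.095). The Tk1 call was lost without Tfh_A replicate 6 (0.0614) and without Tfh_5 replicate 1 (0.118). Mcm4, the clearest S member under the CD4Cre- label, had 23.9, 6.36 and 38.0 CPM in Tfh_5 libraries labelled CD4Cre+, against 34.0, 47.3 and 71.6 CPM in Tfh_A, with 29.6, 55.7 and 12.7 CPM in Tfh_1, overlap throughout and no call (Tfh_5 against Tfh_A -1.17 ± 0.48, adjusted p = 0.185).

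Among the G2/M members, Top2a was lower than in Tfh_A by -1.07 ± 0.22 in Tfh_1 (edgeR adjusted p = 0.0032) and by -0.88 ± 0.22 in Tfh_5 (0.010), with no overlap in the values given above. The Tfh_1 call held in all 15 alternatives, and the Tfh_5 call was lost in the 6 libraries alone (0.0673), without Tfh_A replicate 3 (0.0607) and without Tfh_5 replicate 1 (0.119). Under the CD4Cre- label its differences were -0.39 ± 0.22 and -0.10 ± 0.22, and the interactions of -0.69 ± 0.31 and -0.78 ± 0.31 did not pass (adjusted p = 0.64 and 0.28).

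Tpx2, which helps to build the mitotic spindle and activates Aurora A, had 31.3, 48.8 and 53.5 CPM in Tfh_5, against 82.7, 91.6 and 78.3 CPM in Tfh_A, with no overlap (-0.92 ± 0.27, edgeR adjusted p = 0.039). It had 44.4, 71 and 53.7 CPM in Tfh_1 under this label, and 125, 93.3 and 122 CPM in Tfh_A, 72.9, 68.8 and 74.2 CPM in Tfh_1 and 63.9, 87.8 and 95 CPM in Tfh_5 under the CD4Cre- label. The Tpx2 call was lost without a count filter (0.0774), in the 6 libraries alone (0.109), without Tfh_A replicate 6, 1 or 3 (0.0773, 0.0828 and 0.148) and without Tfh_5 replicate 1 or 3 (0.231 and 0.0686). Stmn1, a tubulin-binding protein that destabilises microtubules, had 308, 441 and 372 CPM in Tfh_5, against 199, 240 and 209 CPM in Tfh_1, with no overlap (0.79 ± 0.19, adjusted p = 0.017). It had 305, 274 and 270.1 CPM in Tfh_A under this label, and 247, 287 and 299.9 CPM in Tfh_A, 236, 263 and 261 CPM in Tfh_1 and 276, 273 and 364 CPM in Tfh_5 under the CD4Cre- label, where the treatments overlapped in part. The Stmn1 call was lost in the 6 libraries alone (0.0716), without Tfh_1 replicate 6 or 1 (0.0853 and 0.119) and without Tfh_5 replicate 3 (0.137).

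All 3 libraries labelled CD4Cre+ of Tfh_1 lay below all 3 of Tfh_A for 18 of 50 members, beside 9.76% of all genes, and all 3 of Tfh_5 for 17 of 50, beside 11.6%. The reverse held for 1 member in Tfh_1, beside 9.06% of all genes, and for 2 in Tfh_5, beside 9.78%. Between Tfh_5 and Tfh_1 this was so for 6 of 50 members, beside 8.14%, and the reverse for 4 of 50, beside 7.22%. The median differences against Tfh_A were -0.68 and -0.44 for the G1 members, -0.65 and -0.73 for the S members and -0.54 and -0.56 for the G2/M members in Tfh_1 and Tfh_5, beside -0.06 and -0.05 for all genes. Of the wider lists, 6 of 53 other S genes and 4 of 67 other G2/M genes were called lower in Tfh_1, beside 0.997% of all genes lower. In Tfh_5 these were 4 of 53 and 2 of 67, beside 3%.

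Among those other genes, Dnmt1, the maintenance DNA methyltransferase, differed by -1.85 ± 0.38 in Tfh_1 (edgeR adjusted p = 0.00309), a call lost without Tfh_A replicate 3 (0.0620). Cdca8 differed by -1.39 ± 0.26 in Tfh_1 (0.0012) and held in all 15 alternatives. Hells differed by -1.98 ± 0.35 in Tfh_5 (0.000175), and Cenpw by -1.69 ± 0.30 (0.000185), and both held in all 15 alternatives. Rfc5, a subunit of the clamp loader, differed by -1.55 ± 0.35 in Tfh_1 (0.0074), a call lost without Tfh_1 replicate 6 (0.0790).

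**Figure D4:**
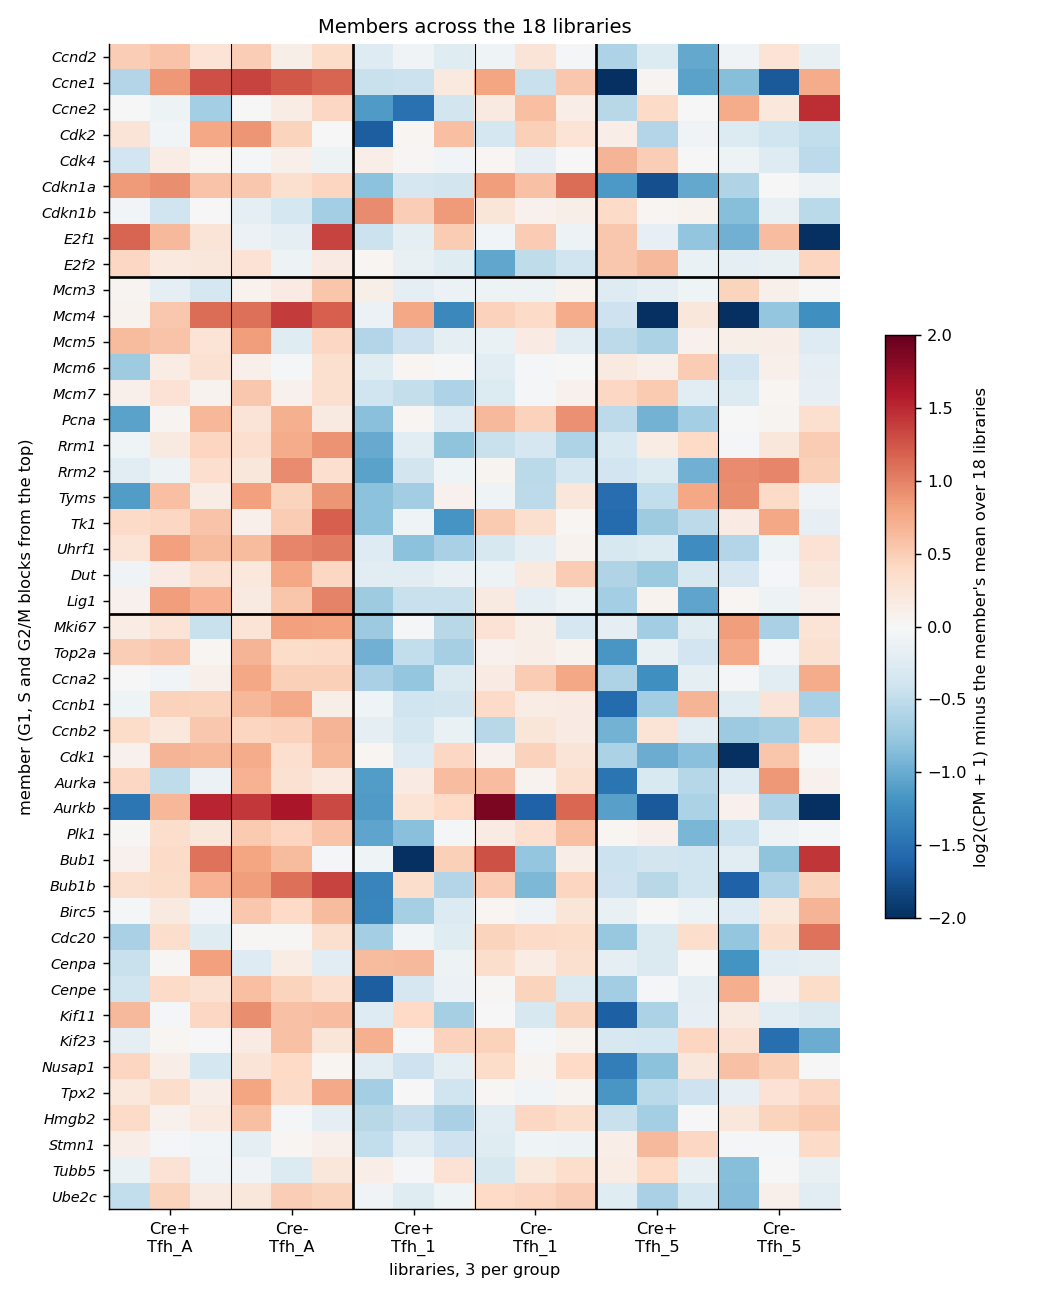
Level of the 45 members that averaged at least 10 CPM (rows, in blocks of G1, S and G2/M from the top) in the 18 libraries (columns, 3 per group). Colour gives log2(CPM + 1) minus the member's mean over all libraries, with values beyond 2 in either direction shown as 2 (the lowest was -3.21). The Cdkn1a row is red in both Tfh_A groups and in Tfh_1 under the CD4Cre- label, and blue in Tfh_1 and Tfh_5 under the CD4Cre+ label.

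Over all 13 comparisons, edgeR called 14 of the 50 tested members at least once, 4 of 12 in G1, 6 of 14 in S and 4 of 24 in G2/M, beside 11.3% of all genes. DESeq2 called 24 of 51 at least once, beside 18.5% of all genes, and limma-voom 21 of 50, beside 17.7%. Members that none of these tools called in any comparison include the kinases Cdk2, Aurka, Aurkb, Plk1 and Bub1, the transcription factors E2f1 and E2f2, and Tyms of S phase. Cdk1 was called with DESeq2, Bub1b with limma-voom and Dut with both, and none of these with edgeR.

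Exons of 19 of the 51 overlap those of another gene in the GENCODE annotation, 17 of them on the opposite strand, among these Ccna2, Ccnd2, Ccne2, Cdkn1a, Lig1 and Tk1. Without strand, reads of such pairs cannot be told apart. Top2a and Stmn1 overlap a gene on their own strand. Fractional counts occurred in 17 of 18 libraries for Ccnd2 and Stmn1, 14 for Top2a and Rrm2, 13 for Lig1, 5 for Cdkn1a, 4 for Mcm4 and 0 for Ccne2.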

How the data were processed

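The deposited values are estimated counts per gene, by Entrez identifier, and 11.7% to 18.1% of the values in a library are fractional. That share is over all 27179 genes listed, zeros included, of which 10242 to 12673 were above 0 in a library. Per the submitters' processing notes, STAR 2.7.2b, featureCounts 1.6.4 and the mouse build mm10 were used, and strand and the treatment of shared reads are not given in the sources used here. Counts were rounded before testing. All 18 libraries were fitted with 1 mean per group in edgeR 4.0.16 (R 4.3.3; quasi-likelihood test, robust, TMM scaling, filterByExpr), and p-values were adjusted by Benjamini-Hochberg over all 11735 genes tested, with a threshold of 0.05. Raw counts were planned for, and rounded estimated counts took their place. CPM use the TMM-scaled library size, and SE is the log2 fold change over the square root of the F statistic. Counts summed per replicate number were fitted apart. limma 3.58.1 and DESeq2 1.42.0 were alternatives. The edgeR, limma and DESeq2 steps were tested on simulated data.

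The members and the lists were chosen with earlier results of these data known. All members are accounted for, and those called in any comparison and 11 anchors (Mki67, Top2a, Ccnb1, Mcm5, Pcna, Ccnd2, Ccnd3, Cdk6, Cdkn1a, Cdkn1b, Cdkn2c) are given with every library. Of the wider lists, up to 4 called genes per comparison were named. Identifiers without a symbol, 1904 of 27179, were tested but are not named.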

Additional observations from a re-analysis of the deposited data

Results flagged for a closer look

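Cdkn1a was the member whose difference between genotype labels itself differed between treatments. The difference, CD4Cre+ over CD4Cre- on the log2 scale, was lower in Tfh_1 than in Tfh_A by -1.72, and lower in Tfh_5 than in Tfh_A by -1.43. In Tfh_1 and in Tfh_5 all 3 libraries labelled CD4Cre+ lay below all 3 labelled CD4Cre-, and in Tfh_A all 3 lay above them. Both tests share the Tfh_A libraries.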

How the results depend on the processing

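No called member changed sign under any alternative run, but the counts of called members moved. Between genotype labels in Tfh_1, where 1 was called, it was 3 without a count filter, 4 with DESeq2, 2 in the 6 libraries alone and 1 to 3 with 1 library left out. In Tfh_5, where 4 were called, it was 2 with relative log expression scaling, 9 with DESeq2, 0 in the 6 libraries alone and 1 to 5 with 1 left out. Under the CD4Cre- label, Tfh_1 against Tfh_A (1 called) gave 2 with DESeq2, in the 6 libraries alone and with the edgeR 4 quasi-dispersion, and 0 to 1 with 1 left out. Tfh_5 against Tfh_A (1 called) gave 2 without a filter and with DESeq2, 5 with limma-voom and with the edgeR 4 quasi-dispersion, and 1 to 3 with 1 left out. Tfh_5 against Tfh_1 (1 called) gave 2 without a filter, with DESeq2 and with the edgeR 4 quasi-dispersion, 0 in the 6 libraries alone, and 0 to 1 with 1 left out. Under the CD4Cre+ label, Tfh_1 against Tfh_A (6 called) gave 10 with DESeq2 and 2 to 6 with 1 left out. Tfh_5 against Tfh_A (7 called) gave 4 in the 6 libraries alone and 4 to 8 with 1 left out. Tfh_5 against Tfh_1 (1 called) gave 2 without a filter, 3 with DESeq2, 0 in the 6 libraries alone and 0 to 2 with 1 left out. The interactions against Tfh_A (1 called each) gave 0 to 1 with 1 left out. Summed counts (2 called) gave 9 without a filter, 4 with a stricter filter, 11 with DESeq2, 6 with limma-voom, 10 with 18 libraries in 1 fit, 11 with voom and a correlation per replicate number, 5 with the edgeR 4 quasi-dispersion and 0 to 3 with 1 number left out. Calls over all genes moved too, so these counts alone do not show a change particular to the members. Between genotype labels, DESeq2 called 281 genes in Tfh_1 and 657 in Tfh_5, where edgeR called 100 and 380. Between Tfh_5 and Tfh_A under the CD4Cre- label, limma-voom called 891 genes, where edgeR called 596. Calls over all genes are not given for the remaining alternatives, the replicate block included. The cause was not tested. The edgeR 4 quasi-dispersion was chosen after seeing the data.

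With the replicate number as a block, treatment comparisons called 1, 2 and 1 members under the CD4Cre- label and 5, 8 and 1 under the CD4Cre+ label (Tfh_1 and Tfh_5 against Tfh_A, then Tfh_5 against Tfh_1), and the interactions 1, 1 and 0. The call of Uhrf1 between Tfh_1 and Tfh_A under the CD4Cre+ label was lost with the block (adjusted p = 0.0506). Same-numbered libraries correlated by -0.04 to 0.07 in their deviations from group means over 18 pairs, 0 of them over 0.1. Of the 18, 9 correlated best with their own number. With 3 libraries behind each group mean, these values cannot tell whether a replicate number is an animal. Low counts limit Ccnd3, Cdk6, Cdkn2c, Gins2, Kif20a and Mcm2.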

Other observations

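Genes of growth arrest and quiescence, a list of 14 of which 13 were tested, lay mostly above 0 between genotype labels in Tfh_5, with 11 of 13 fitted differences above 0 and a median log2 difference of 0.72, beside 0.00 for all genes. Both genes called, beside 1.19% of all genes higher, were Btg1, an antiproliferative gene of resting lymphocytes, and Slfn2, which is needed for T cell quiescence in the mouse. Btg1 had 87.9, 64.7 and 123 CPM in Tfh_5 libraries labelled CD4Cre+, against 28.7, 28.4 and 23.8 CPM in those labelled CD4Cre-, with no overlap. The log2 fold changes were 1.77 ± 0.32 for Btg1 (edgeR adjusted p = 0.00064) and 1.504 ± 0.33 for Slfn2 (0.00492). The Slfn2 call was lost in the 6 libraries alone (0.109). The list's medians in Tfh_1 and Tfh_A were 0.37 and 0.12, beside -0.02 and 0.00 for all genes.

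Of 18 tested genes of the p53 response, the pathway that induces Cdkn1a, 1 was called between genotype labels in Tfh_5, beside 1.19% of all genes higher: Trp53inp1, with 1.45 ± 0.37 (edgeR adjusted p = 0.0191), higher under the CD4Cre+ label while Cdkn1a was lower. The Trp53inp1 call was lost in the 6 libraries alone (0.0686), without CD4Cre- replicate 2 or 5 (0.0517 and 0.0622) and without CD4Cre+ replicate 6 (0.193). The list's median was 0.19 in Tfh_5 and 0.21 in Tfh_1, beside 0.00 and -0.02 for all genes.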
